A study of Mus musculus with 56 samples.

Results

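The 9 genes described here, Fasn, Scd1, Acaca, Acly, Elovl6, Me1, Srebf1, Thrsp and Pnpla3, belong to the pathway that makes fatty acids from carbohydrate. They were chosen by name, as enzymes and regulators of fatty acid synthesis, out of 20018 named genes on the array. The probes were found through the transcript accession given for each spot. A total of 15 probes matched the 9 genes, and 1 probe per gene, the brightest one in the sample channel, was kept; it was the same probe in liver, lung and forestomach.

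Fatty acid synthesis starts in the cytosol, where ATP citrate lyase (Acly) splits citrate into acetyl-CoA. Acetyl-CoA carboxylase alpha (Acaca) turns acetyl-CoA into malonyl-CoA, and fatty acid synthase (Fasn) joins these units into palmitate, drawing on NADPH that malic enzyme (Me1) helps to supply. Elovl6 lengthens palmitate to stearate and stearoyl-CoA desaturase (Scd1) turns stearate into oleate, the main fatty acid of stored triglyceride. Srebf1 encodes SREBP-1, a transcription factor driven by insulin that switches on most of these enzymes, Thrsp is a small lipogenic protein induced by thyroid hormone and carbohydrate, and Pnpla3 is a lipid droplet hydrolase that is itself a target of SREBP-1. In rodents the pathway is active in liver and in fat, and in both it falls on fasting and rises on refeeding.

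All animals were adult male MutaMouse, a mutation-reporter transgenic strain, about 14 weeks old and fed ad libitum. Each mouse was gavaged with olive oil every day for 28 days. In D0 the oil held nothing else, and in D1, D2 and D3 it carried chrysene, an aromatic hydrocarbon of fused rings, at daily doses of 17.5, 50 and 150 mg per kg of body weight. Tissues were taken 72 hours after the last gavage. D0, D1 and D3 had 5 mice in each tissue, and D2 had 4 in liver and forestomach and 3 in lung, which gave 56 arrays in all. RNA from random sections of the frozen organs was labelled with Cy5 and hybridised against a universal reference RNA made from 11 mouse cell lines and labelled with Cy3, so every value below is a log2 ratio of sample to reference for 1 probe. Because the reference channel differs from probe to probe, values were compared between mice and tissues for the same gene and never between genes.

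The tissues carried their own markers. All 8 hepatocyte genes were higher in liver, all 8 alveolar type 2 cell genes were higher in lung, and 7 of 8 keratinocyte genes were higher in forestomach. Some arrays differed from the rest in ways that touch the results. The lung samples of mouse 13 (D2) and of mice 17 and 19 (D3) stood apart: the mean log2 ratio of the adipocyte genes was 4.22, 4.7 and 4.66 on them and 0.45 to 2.94 on the other 15 lung arrays, and mice 17 and 19 also carried skeletal muscle genes at 7.33 and 7.55 and keratinocyte genes at 4.45 and 4.74 above the D0 mean. On the other 16 lung arrays the keratinocyte list lay between -0.11 and 0.23 relative to the D0 mean. In forestomach the 95th percentile of the Cy5 signal was 278 to 1158 on slides 1 and 2 and 2412 to 6586 on slide 3, while liver arrays reached 2348 to 5354 and lung arrays 4504 to 7973. The forestomachs of D0 mice 2 and 5 were on slide 3 and those of D0 mice 1, 3 and 4 on slides 1 and 2, and the adipocyte genes averaged 5.08 and 4.9 in the former and 0.83 to 0.98 in the latter. The forestomachs also differed in genes of neighbouring organs: the glandular stomach list ranged from 0.38 to 7.23 (0.59 to 7.01 among D0 mice), the hepatocyte list from 0.01 to 3.38 at D0, and the pancreatic acinar list reached 5.06 in mouse 19 of D3. No slide held 2 tissues, so slide and tissue cannot be told apart, whereas each slide held arrays of at least 3 dose groups.

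In vehicle-treated mice most of these genes were highest in liver. Of the 9 genes, 8 were higher in liver than in lung at an FDR of 0.05 and a fold of 1.5, and 6 were higher in liver than in forestomach while 2 were lower. Between lung and forestomach, Scd1 and Fasn were higher in lung and Elovl6, Me1 and Pnpla3 were higher in forestomach, the call of Pnpla3 being lost without mouse 2 or 5, its only D0 forestomachs well above background. These counts were read against limma calls of 45.7% of all probes tested for liver against lung, 41.1% for liver against forestomach and 38.2% for lung against forestomach. Of all probes, 18.7% were called higher and 27% lower in liver than in lung, 18.7% higher and 22.5% lower in liver than in forestomach, and 21.6% higher and 16.6% lower in lung than in forestomach. In bulk samples such as these, fewer cells of a type and less RNA per cell cannot be told apart.

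**Figure D1:**
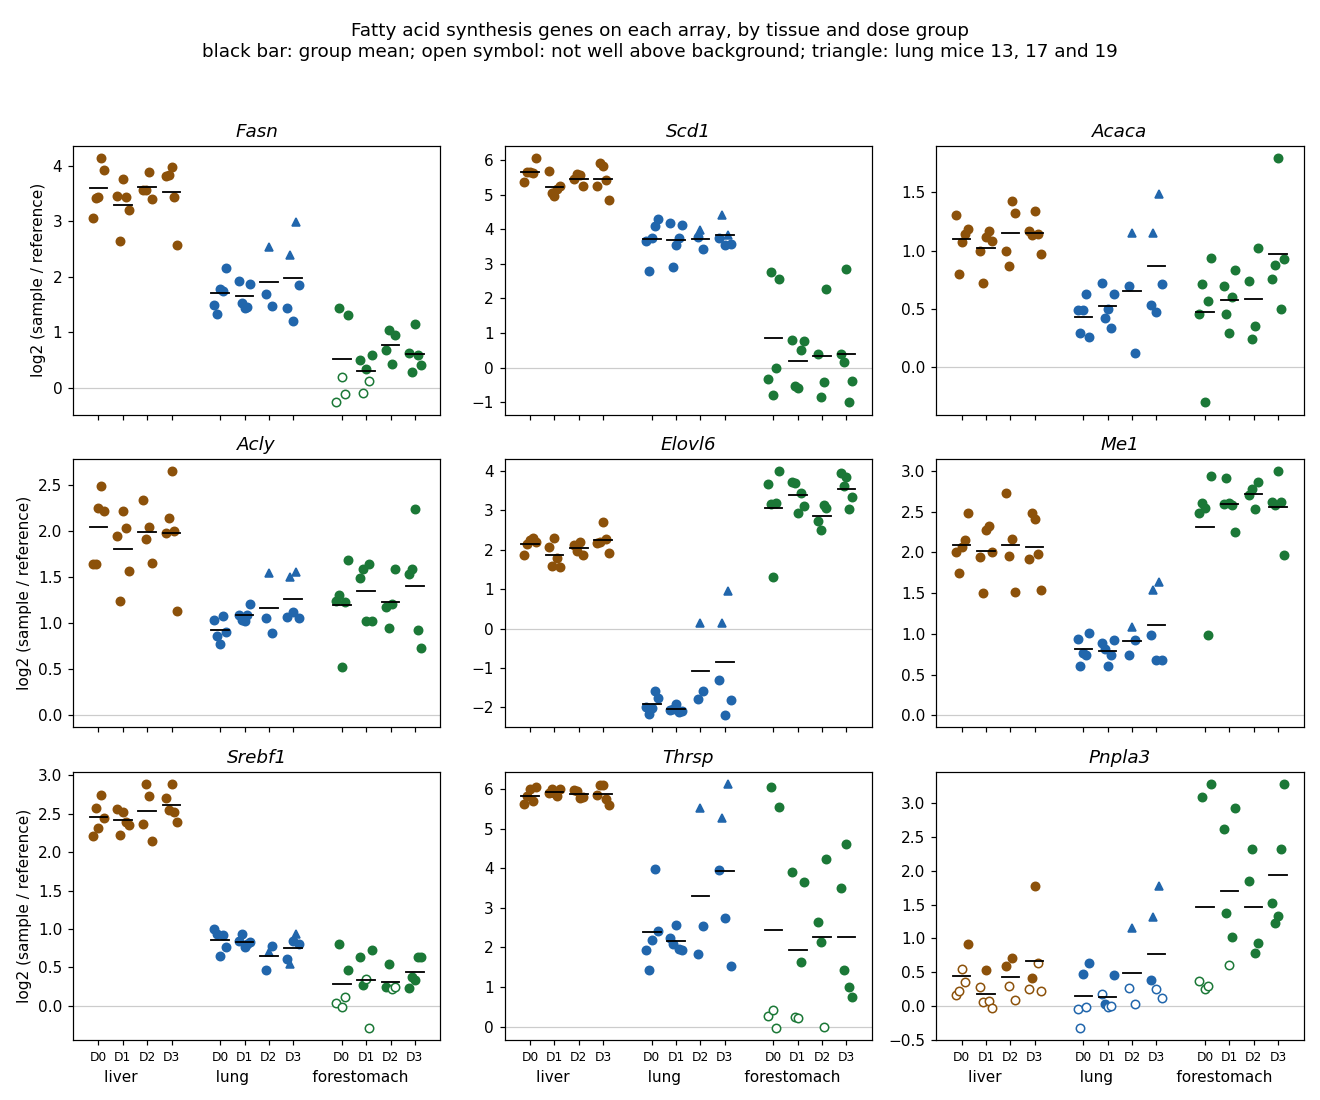
Log2 ratio of sample to reference RNA for each of the 9 genes on every array, by tissue and dose group. Each symbol is 1 mouse, a black bar is the group mean, open symbols were not well above background and triangles are lung mice 13, 17 and 19. Thrsp lay between -0.04 and 6.05 on the forestomach arrays, and its highest ratios are compressed by a reference signal that rose with the sample signal.

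Srebf1 and Thrsp, the regulators, were both higher in liver. Srebf1 had log2 ratios of 2.21, 2.58, 2.32, 2.75 and 2.44 in D0 liver and of 1, 0.93, 0.65, 0.92 and 0.76 in D0 lung, a difference of 1.6 (SE 0.14, 3.04-fold, limma adjusted p = 6.71e-14). In D0 forestomach it was 0.04, 0.81, -0.02, 0.12 and 0.47, with only the values of mice 2 and 5 well above background, and liver was higher (adjusted p = 2.28e-18). The liver values of Srebf1 overlapped with neither other tissue. Thrsp was 5.62, 5.82, 5.99, 5.7 and 6.05 in D0 liver and 1.93, 1.42, 2.18, 3.99 and 2.41 in D0 lung, which was lower (adjusted p = 0.000807). In D0 forestomach Thrsp was 0.26, 6.05, 0.42, -0.04 and 5.55. Mice 2 and 5, the 2 on the bright slide and with high adipocyte genes, were the high ones, and the other 3 forestomachs were not well above background. The test of liver against forestomach (adjusted p = 0.00116) averaged over these 2 kinds of sample. The reference channel of the Thrsp probe was not constant, although all arrays carried the same reference RNA. Its Cy3 signal was 172 to 1178 in liver, 44 to 141 in lung and 38 to 304 in forestomach, and log2 Cy3 followed log2 Cy5 with an r of 0.826, 0.96 and 0.752, for a reason that was not tested. Within a tissue the Cy3 signal of the other 8 genes spanned at most 1.71-fold, and that of Thrsp 6.85-fold in liver. High Thrsp ratios are therefore compressed, so that no fold between tissues is given and their order among livers and other high samples is not a measure of Thrsp level. The Cy5 signal itself was 4811 to 16708 in D0 liver and 190.5 to 1111 in D0 lung, without overlap.

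The enzymes that feed the synthase were higher in liver than in lung by smaller factors. Acly, the source of cytosolic acetyl-CoA, averaged 2.05 ± 0.39 in D0 liver and 0.93 ± 0.13 in D0 lung (SD, n = 5), a 2.17-fold difference (limma adjusted p = 2.48e-05), and 1.2 ± 0.42 in D0 forestomach, 1.8-fold below liver (adjusted p = 0.00109). Acaca was 1.1 ± 0.19 in liver, 0.43 ± 0.16 in lung and 0.48 ± 0.47 in forestomach. Its differences of 1.59-fold and 1.54-fold lay just above the fold limit (adjusted p = 0.00253 and 0.00534). With the authors' deposited ratios they were 0.49 and 0.32 on the log2 scale (adjusted p = 0.0226 and 0.148), so that Acaca was under the fold limit in both comparisons and 7 genes were called higher in liver than in lung, and the call against forestomach was also lost without mouse 1 or 3. Me1 was 2.09 ± 0.27 in liver, 0.82 ± 0.16 in lung and 2.31 ± 0.76 in forestomach. It was 2.43-fold higher in liver than in lung (adjusted p = 4.29e-06) and 2.83-fold higher in forestomach than in lung (adjusted p = 2.84e-07), and with arrays centred on their median the latter was 0.68 in favour of lung (adjusted p = 0.362), which is -0.27 relative to the median of all probes under that scaling. Liver and forestomach differed by -0.22 on the log2 scale (SE 0.23, adjusted p = 0.414), and by 1.09 with median centring, or 0.92 relative to all probes.

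Fasn and Scd1 were ordered liver, lung, forestomach. Fasn was 3.06, 3.42, 3.44, 4.14 and 3.92 in D0 liver and 1.5, 1.33, 1.79, 1.75 and 2.16 in D0 lung, with no overlap (3.7-fold, limma adjusted p = 1.37e-07). In D0 forestomach Fasn was -0.26, 1.44, 0.2, -0.11 and 1.32, again with only mice 2 and 5 well above background. All 5 values lay below those of liver (adjusted p = 3.47e-13), and no fold is given since 3 of them were not well above background. Scd1 was 5.36, 5.66, 5.65, 5.62 and 6.06 in D0 liver and 3.67, 2.8, 3.75, 4.09 and 4.29 in D0 lung (3.86-fold, adjusted p = 0.00101). In D0 forestomach Scd1 was -0.34, 2.78, -0.79, 0 and 2.57, 28.3-fold below liver on average (adjusted p = 2.65e-11). Lung was above forestomach for Fasn (adjusted p = 0.00042) and by 7.33-fold for Scd1 (adjusted p = 5.84e-06). For both genes the forestomachs of mice 2 and 5 reached the range of lung or came close to it, and the other 3 did not.

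Elovl6 had a different order, with forestomach highest and lung lowest. It was 1.86, 2.14, 2.25, 2.3 and 2.2 in D0 liver, -2, -2.16, -2.01, -1.58 and -1.77 in D0 lung and 3.66, 3.16, 1.32, 3.2 and 4 in D0 forestomach. The lung values lay below all others, 16.6-fold under liver (log2 difference 4.05, SE 0.37, limma adjusted p = 1.19e-13) and 31.4-fold under forestomach (adjusted p = 3.31e-16). Forestomach was above liver in 4 of 5 mice, with mouse 3 at 1.32 below every liver, and the difference of 1.89-fold had an adjusted p of 0.0286, which was lost without mouse 1, 2, 4 or 5 and was 0.18 in favour of liver with median centring, or 0.01 relative to all probes. Pnpla3 was well above background on 1 of 5 D0 livers, 2 of 5 D0 lungs and 2 of 5 D0 forestomachs. The forestomachs of mice 2 and 5 had Pnpla3 at 3.1 and 3.29 and the other 3 at 0.25 to 0.37, while only 1 liver gave a value well above background, 0.92 in mouse 5. Pnpla3 was called lower in liver (adjusted p = 0.0497), a call that was lost without mouse 2, 5, 16, 17 or 19.

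These comparisons depended on how the arrays were scaled. When each array was centred on its median in place of loess, the median log2 difference of all probes moved from -0.08 to -0.623 for liver against lung, from -0.049 to 0.171 for liver against forestomach and from 0.048 to 0.952 for lung against forestomach. The share of all probes above 0 moved with it, from 45.1% to 20.3%, from 46.9% to 61.9% and from 53.3% to 84.1%. Only 2 genes, Elovl6 and Thrsp, were then called between liver and lung, beside 46.6% of all probes. Relative to the all-probe median under that scaling, all 9 genes still lay higher in liver than in lung, from 0.39 for Acaca to 3.44 for Elovl6.

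Genes of the neighbouring pathways were compared in the same D0 mice. Their counts stand beside 18.7% of all probes higher and 27% lower in liver than in lung, and 18.7% higher and 22.5% lower in liver than in forestomach. Of 15 regulators of lipogenesis, 8 were higher and 3 lower in D0 liver than in lung, among them the carbohydrate-response factor Mlxipl (log2 difference 4.39), Insig2 (3.37) and liver pyruvate kinase Pklr, which was well above background on 0 of 5 D0 lungs. Against forestomach, 9 regulators were higher and 1 lower in liver, with Mlxipl (well above background on 2 of 5 D0 forestomachs), the oxysterol receptor Nr1h3 (3.89, on 4 of 5) and Insig2 (3.52). Genes that supply acetyl-CoA and NADPH were divided. Of 11, 4 were higher and 4 lower in liver than in lung, where the acetyl-CoA synthetase Acss2 (4.02), the citrate carrier Slc25a1 (2.81) and the NADPH-forming Idh1 (2.74) were higher and glucose-6-phosphate dehydrogenase, G6pdx (-2.31), was lower. Against forestomach, 3 were higher and 5 lower in liver, and G6pdx differed most (-4.64).

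The other elongases and desaturases differed between tissues in both directions. Of 17, 10 were higher and 4 lower in D0 liver than in lung, with Elovl2 and Elovl3 higher and Scd2 (-5.82) and Fads3 (-3.66) lower in liver. Elovl2 and Elovl3 were well above background on 0 of 5 D0 lungs, so no size is given. Elovl4, which makes the very long chains of the skin barrier, was lower in liver and in lung than in forestomach, as was Elovl7, which differed by -2.49 between lung and forestomach. Both were well above background on 0 of 5 D0 livers, and Elovl4 on 3 of 5 D0 lungs. Of 17 genes of triglyceride synthesis and lipid droplets, 9 were higher and 3 lower in liver than in lung, led by Dgat2 (6.29), Acsl1 (4.06), Agpat2 (3.84) and Plin5 (3.53). Against forestomach, 9 were higher and 4 lower in liver, with Plin5 (well above background on 2 of 5 D0 forestomachs) and Acsl1 (3.33) higher and the lipid droplet gene Cidea and the acyltransferase Mogat1, each well above background on 0 of 5 D0 livers, lower. Dgat2, which makes triglyceride, was also lower in lung than in forestomach (-5.46).

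None of the 9 genes passed the limits at any chrysene dose in any tissue. With limma, 0 of 9 passed at D1, D2, D3 or in the trend over dose steps in liver, where 0% of 24692 probes were called in each contrast. In lung 0 of 9 passed, beside 0% of 31448 probes at D1 and D2, 0.0445% at D3 and 0.0827% in the trend. These shares are 14 and 26 probes, and leaving out each mouse they ranged from 0 (without mouse 19, and at D3 also without mouse 4 or 20) to 61 and 76 (without mouse 16). In forestomach 0 of 9 passed, beside 0% of 27491 probes at D1 and D3, 0.00364% at D2 and 0.0146% in the trend. The latter are 1 and 4 probes, and the trend count ranged from 0 (without mouse 1, 2, 17, 18 or 20) to 84 (without mouse 10). The permutation-based Fs statistic also called 0 of the 9. At an unadjusted p of 0.05, 1 gene passed in liver at D1 (Scd1, -0.44, SE 0.18), 4 in lung at D3 and 5 in the lung trend, and 0 in every other contrast. At the same limit 4.24%, 4.71%, 6.13% and 6.69% of all liver probes passed at D1, D2, D3 and in the trend. The shares were 6.49%, 6.73%, 15.8% and 16.9% in lung and 4.18%, 7.44%, 9.73% and 9.64% in forestomach. At D3 0 of 9 genes had all dosed mice above or all below the D0 mice in any tissue. Among all probes 0.283% lay entirely above and 0.81% entirely below in liver, 1.13% and 1.43% in lung, and 0.993% and 0.455% in forestomach. All dose groups of a tissue were compared with the same D0 arrays.

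In liver the D3 means of the 9 genes lay within 0.22 log2 units of D0, Pnpla3 being the furthest. Fasn was 3.82, 3.83, 3.99, 3.44 and 2.57 at D3 beside 3.06 to 4.14 at D0, a log2 difference of -0.07 (SE 0.25), and only mouse 20 lay below the D0 range. Acly differed by -0.07 (SE 0.24), Scd1 by -0.21 (SE 0.18) and Me1 by -0.03 (SE 0.21). Elovl6 differed by 0.11 (SE 0.15), Srebf1 by 0.16 (SE 0.13), Acaca by 0.05 (SE 0.11) and Thrsp by 0.04 (SE 0.1). The limma adjusted p of the 9 genes lay between 0.935 and 0.997. Their median was 0.04, with 5 of 9 above 0, beside a median of -0.016 and 43.8% above 0 for all liver probes. At D1 the median of the 9 genes was -0.25 with 1 of 9 above 0, beside a median of -0.013 for all probes. At D2 it was 0 with 5 of 9 above 0. The 9 genes moved together over livers, so these counts are not made of separate observations.

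**Figure D2:**
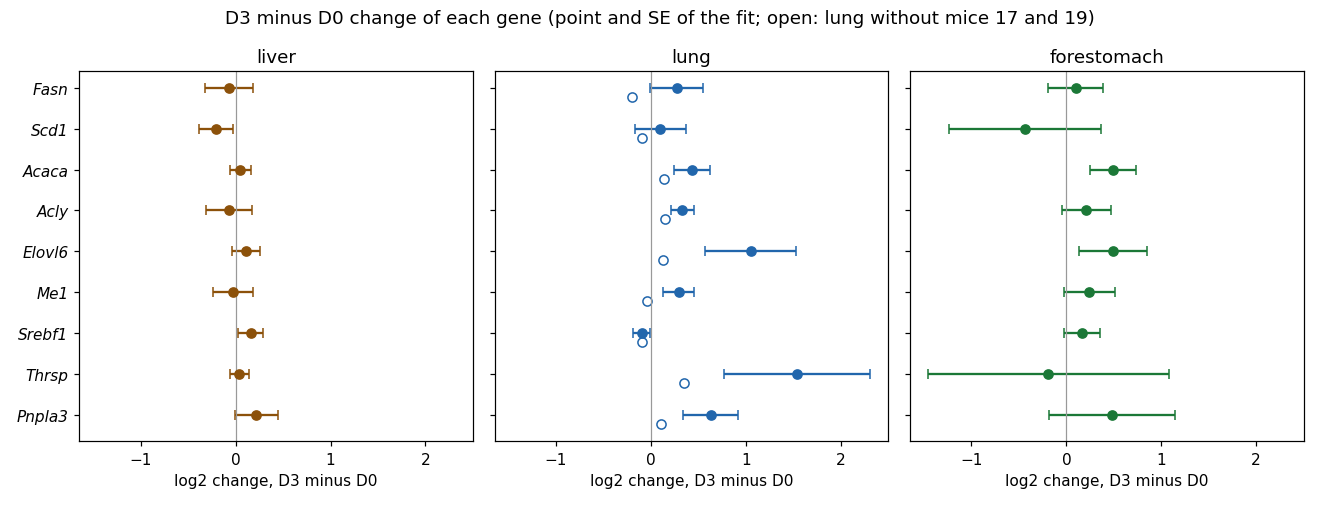
Log2 difference between D3 and D0 for each gene and tissue. Points are limma estimates and bars their standard errors, and open symbols are the lung estimates without mice 17 and 19. Without these mice, set aside after the values were seen, the lung estimate of Thrsp moved from 1.54 to 0.35 and that of Elovl6 from 1.05 to 0.13.

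In lung the largest D3 differences belonged to Thrsp and Elovl6, whose highest D3 values were those of mice 17 and 19. Thrsp was 3.96, 5.27, 2.73, 6.13 and 1.52 in mice 16 to 20 at D3, 1.54 above D0 on the log2 scale (SE 0.77, limma adjusted p = 0.342). No fold is given, since the high ratios of Thrsp are compressed. Elovl6 was -1.31, 0.13, -2.2, 0.96 and -1.82, a difference of 1.05 (SE 0.48, 2.08-fold, limma adjusted p = 0.297). In both genes mice 17 and 19 were the highest of the 5, and the other 3 ranged from 1.52 to 3.96 for Thrsp, beside 1.42 to 3.99 at D0, and from -2.2 to -1.31 for Elovl6, beside -2.16 to -1.58. Acly differed by 0.33 (SE 0.12, adjusted p = 0.226), Acaca by 0.43 (SE 0.19, adjusted p = 0.283) and Pnpla3 by 0.63 (SE 0.29, adjusted p = 0.309). In the trend over dose steps the fitted change from D0 to D3 was 1.71 for Thrsp, 1.21 for Elovl6 and 0.32 for Acly (adjusted p = 0.249, 0.204 and 0.175). At D3, 8 of the 9 genes lay above 0 with a median of 0.33, beside 51.5% and 0.005 for all lung probes. Mice 17 and 19 were set aside after the values were seen, so smaller estimates without them follow from that choice. Without mice 17 and 19, 5 of 9 lay above 0 with a median of 0.11. Acly was then 0.15, Acaca 0.14 and Pnpla3 0.11 above D0, and Fasn differed by -0.2, Scd1 by -0.09 and Me1 by -0.04. Srebf1 was -0.1 with and without them. Without mice 13, 17 and 19, 0 of 9 genes passed an unadjusted p of 0.05 at D3 or in the trend.

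The same 3 lung samples separated most of the genes from the other mice. These mice were set apart after the values were seen. For 7 of 9 genes, mice 13, 17 and 19 were higher than all 15 other lung mice, whatever the dose. How many of all lung probes separate the same mice was not counted, so this is not shown to be particular to these genes. Thrsp was 5.27 to 6.13 on them and 1.42 to 3.99 on the others, and Elovl6 was 0.13 to 0.96 against -2.2 to -1.31. Fasn was 2.4 to 2.99 against 1.21 to 2.16, and Acaca 1.15 to 1.48 against 0.12 to 0.72. Acly was 1.5 to 1.55 against 0.77 to 1.21, Me1 1.08 to 1.64 against 0.61 to 1.01, and Pnpla3 1.16 to 1.78 against -0.33 to 0.63. Scd1 and Srebf1 overlapped, with Scd1 at 3.83 to 4.41 against 2.8 to 4.29 and Srebf1 at 0.55 to 0.93 against 0.47 to 1. Beside these values, adipocyte genes lay 2.66, 3.14 and 3.1 above the D0 mean in mice 13, 17 and 19, and the next highest mouse, mouse 16, was at 1.38. Brown adipocyte genes lay 3.81, 2.49 and 4.74 above it, with the next mouse at 0.61. Of the 8 adipocyte markers 7 passed the brightness filter in lung, Lep was above background on 0 of 18 lung arrays and Adipoq on 13 of 18, and the summed Cy5 signal of the list was 1882 to 9894 at D0 and 3046 to 51694 at D3. The part of the adipocyte genes in the lung differences was not tested.

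In forestomach the limma estimates of the D3 differences had adjusted p between 0.533 and 0.985. Acaca was 0.46, 0.71, -0.3, 0.57 and 0.94 at D0 and 0.76, 0.88, 1.79, 0.5 and 0.93 at D3, a difference of 0.49 (SE 0.24, limma adjusted p = 0.533). The groups overlapped, and mouse 3 at D0 and mouse 18 at D3 were the extremes. Elovl6 differed by 0.49 (SE 0.36), Pnpla3 by 0.48 (SE 0.66), Thrsp by -0.19 (SE 1.27) and Scd1 by -0.44 (SE 0.8). The median over the 9 genes was 0.21 with 7 above 0, beside 0.02 and 53.9% for all forestomach probes. The D3 effect was also compared between tissues. In limma interaction contrasts 0 of 9 genes passed, beside 0% of probes for liver against lung, 0.149% for liver against forestomach and 0.529% for lung against forestomach. At an unadjusted p of 0.05 also 0 passed, beside 4.99%, 10.5% and 13.1% of probes. The lowest unadjusted p of the 27 was 0.0785, for Elovl6 in liver against lung.

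None of the lists of neighbouring pathway, fasting or clock genes held a gene past the limits at any dose (limma). In liver 0 to 3 genes of a list passed an unadjusted p of 0.05 in a contrast, apart from clock output genes at D2, where 4 of 9 did, beside 4.71% of all liver probes. All 9 of those clock genes lay above D0, with a median of 0.64. In lung 7 of 10 clock output genes passed it at D2 with a median of 0.65, beside 6.73% of all lung probes, and 4 of 10 passed it at D3 and in the trend. For lung at D3, 4 of 11 supply genes, 4 of 15 elongases and desaturases and 5 of 17 triglyceride genes passed with all mice, and 0, 1 and 3 did without mice 13, 17 and 19. The clock output list had 4 of 10 with and without these mice, with medians of 0.18 and 0.39, and the fasting list went from 2 to 3 of 8. Of all lung probes 15.8% passed with all mice and 9.69% without these 3. In forestomach at most 3 genes of a list passed it in any contrast.

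Mice of the same dose group differed from each other. In liver the SD between mice, with dose-group means removed, was 0.439 for Fasn, above that of 97.3% of probes, and 0.421 for Acly, 0.406 for Pnpla3 and 0.372 for Me1, above 96.9%, 96.5% and 95.5%. Pnpla3 was well above background on 6 of 19 livers, and without mouse 18, at 1.77, its SD was 0.257, above 86.5%. The median over all liver probes was 0.154. Scd1 varied by 0.308, Elovl6 by 0.247, Srebf1 by 0.222 and Acaca by 0.19, above 92.4%, 85.4%, 80.3% and 69.8% of probes. From the lowest to the highest of the 19 livers, Fasn spanned 2.97-fold and Acly 2.86-fold. The ratio of Thrsp had an SD of 0.158, but its raw Cy5 signal ran from 4701 to 22061, 4.69-fold, with Cy3 moving alongside, so this SD does not show how much Thrsp varied between livers.

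Fasn and Acly moved together in these livers. Fasn was 3.46, 2.64, 3.76, 3.44 and 3.21 in mice 6 to 10 of D1, where Acly was 1.94, 1.24, 2.22, 2.03 and 1.57, so mouse 7 was lowest and mouse 8 highest in both. At D3, mouse 20 was lowest in both, at 2.57 for Fasn and 1.13 for Acly, and mouse 18 highest in both, at 3.99 and 2.65. Over the 19 mice Pearson's r of the deviations from the dose-group means was 0.877 and Spearman's rho 0.83 (permutation p = 5e-05, adjusted p = 0.0013 over the 108 pairs of the 3 tissues). With the 2 most extreme mice for Fasn set aside r was 0.772, and within slides it was 0.846. The livers of mice 7 and 20 were on slide 3, the brightest liver slide. The median of Fasn was 3.13 there, beside 3.57 and 3.44 on slides 1 and 2, and that of Acly 1.6, beside 1.96 and 2.22. With the log2 brightness of the array Fasn had r = -0.423 and Acly -0.505. The part of slide and brightness in these values was not tested.

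Other pairs of the 9 genes were related in liver as well. Of 36 pairs of the 9 genes, 34 had an r above 0 and 19 an r above 0.5, which is 52.8% of the pairs beside 5.88% of all pairs of genes tested in liver, and the median r was 0.525. With arrays centred on their median the median r was 0.74, beside 0.806 for all pairs of genes, so there was no excess under that scaling. In permutation tests on the loess ratios 10 pairs had an adjusted p of at most 0.05. They were led by Fasn and Acly, Acly and Elovl6 (r = 0.844, adjusted p = 0.00293), Acly and Me1 (r = 0.811, adjusted p = 0.0013) and Elovl6 and Pnpla3 (r = 0.798, adjusted p = 0.0013). Srebf1 passed with Fasn (r = 0.661, adjusted p = 0.00893) and with Elovl6 (r = 0.613, adjusted p = 0.017), and Scd1 passed with the compressed ratio of Thrsp (r = 0.728, adjusted p = 0.0272). Without Thrsp the median r of the remaining 28 pairs was 0.548, and without mouse 18 that of all 36 was 0.437. Acaca stood furthest from the rest, with a median r of 0.33 and 0 of 8 pairs above 0.5. The arrays of a tissue share their reference and their normalization, and the genes are not independent of each other.

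**Figure D3:**
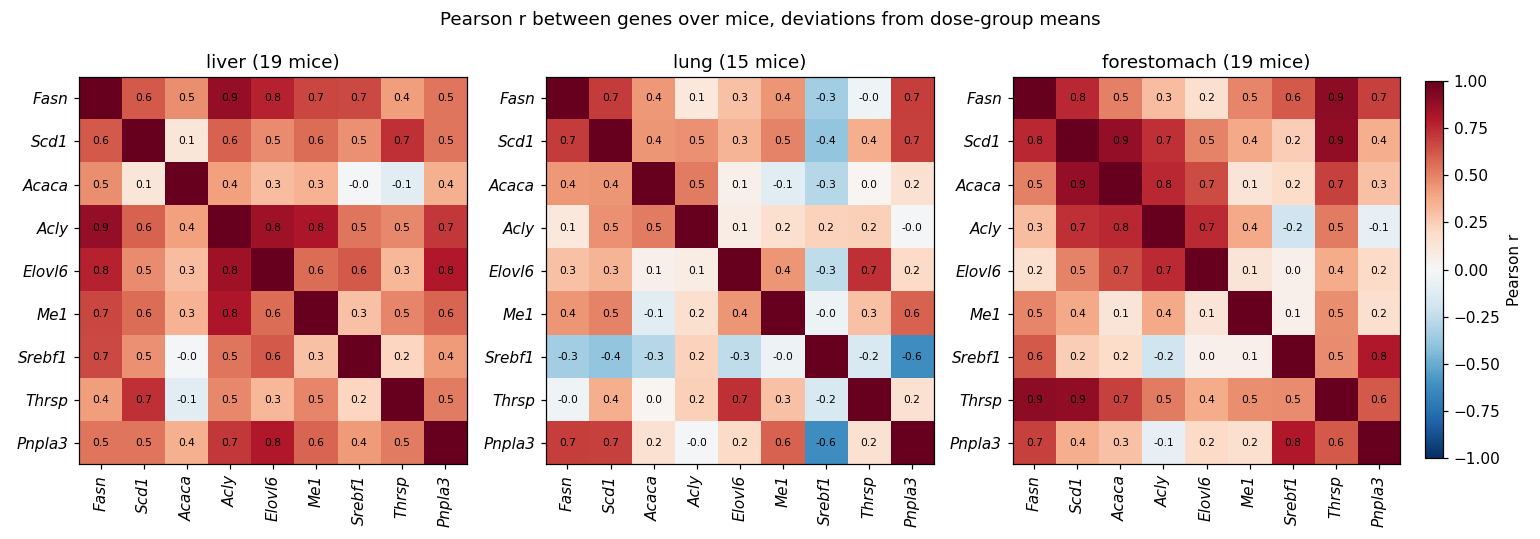
Pearson's r between each pair of the 9 genes over mice, after dose-group means were removed, for 19 livers, 15 lungs and 19 forestomachs. The lung panel leaves out mice 13, 17 and 19. The median r was 0.525 in liver, 0.208 in lung and 0.469 in forestomach.

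Other genes of the same metabolism were set beside the mean deviation of the 9 genes in liver. Of 10 genes that supply acetyl-CoA and NADPH, 6 had an r above 0.5 with it (Slc25a1, G6pdx, Acss2, Idh1, Pgd and Tkt), and the list had a median r of 0.611. Of 14 other elongases, desaturases and carboxylases, 4 did (Elovl5, Scd3, Acacb and Fads1), with a median of 0.346. Of 16 triglyceride genes only Gpam, which starts glycerolipid synthesis, did. Of 15 regulators, 12 fasting-induced genes and 9 clock output genes, 0 did, with medians of -0.0104, 0.00268 and 0.176. Among all liver genes 3.22% passed 0.5. The mean of the clock output list was related to Acaca with r = 0.655, but its permutation p of 0.0195 became 0.175 after adjustment over 108 relations.

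Searched over 12580 named genes in liver, the patterns most like the mean of the 9 genes over 19 mice were those of Tstd3 (r = 0.811), the insulin-regulated glucose transporter Slc2a4 (0.797), the patatin-like lipase gene Pnpla5 (0.791), Hcls1 (0.791), Gpam (0.784), Trdmt1 (0.769), Elovl5 (0.761) and Scd3 (0.747). Slc2a4 and Pnpla5 were well above background on only 4 liver arrays each. The most opposed were Cd3eap (-0.858), Itpka (-0.844), Ing1 (-0.807) and Naa60 (-0.793). No p is given for these, since they were picked from the extremes of the whole list.

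The promoters of the 9 genes were read from RefSeq on GRCm38.p6, as 250 bases before to 50 bases after each transcription start. Sequence was at hand for 11 starts of 8 genes, with none for Scd1. The CCAAT box, searched on both strands, occurred in 7 of the 11 promoters, belonging to 6 genes, and in 37.4% of 32851 mouse promoters. The GC box GGGCGG occurred in 5 promoters of 4 genes (35.7% of all) and the E-box CATGTG in 2 promoters of 2 genes (14.2%). The sterol element TCACNCCAC (1.24% of all), the E-box CACGTG (7.15%) and TATAAA (13.6%) occurred in 0 of the 11, which says only that these letters are not in these windows. The promoters of Fasn and Acly, the pair with the highest r in liver, and of Thrsp, which had the highest SD in forestomach, are printed 5′ to 3′ with CCAAT boxes of either strand (CCAAT or ATTGG) in capitals.
Fasn, chr11:120824498-120824797, minus strand: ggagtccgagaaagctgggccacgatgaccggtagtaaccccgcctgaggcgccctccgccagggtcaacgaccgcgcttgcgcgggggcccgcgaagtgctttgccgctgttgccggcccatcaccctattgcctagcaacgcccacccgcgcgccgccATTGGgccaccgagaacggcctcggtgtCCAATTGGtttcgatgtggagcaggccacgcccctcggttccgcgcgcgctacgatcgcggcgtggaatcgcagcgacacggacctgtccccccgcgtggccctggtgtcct
Acly, chr11:100527951-100528250, minus strand: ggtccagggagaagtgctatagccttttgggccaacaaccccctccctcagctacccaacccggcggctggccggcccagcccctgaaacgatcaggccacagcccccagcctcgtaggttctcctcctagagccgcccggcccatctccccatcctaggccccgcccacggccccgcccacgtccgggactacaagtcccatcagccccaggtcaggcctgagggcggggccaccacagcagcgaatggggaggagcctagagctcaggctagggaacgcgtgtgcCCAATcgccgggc
Thrsp, chr7:97417501-97417800, minus strand: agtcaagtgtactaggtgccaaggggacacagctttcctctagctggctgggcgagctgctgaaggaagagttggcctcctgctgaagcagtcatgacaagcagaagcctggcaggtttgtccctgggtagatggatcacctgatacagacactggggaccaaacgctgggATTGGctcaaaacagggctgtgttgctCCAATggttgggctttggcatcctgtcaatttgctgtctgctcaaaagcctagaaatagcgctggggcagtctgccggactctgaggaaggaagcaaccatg
The CCAAT boxes of Fasn start at -90, -62 and -59 from the transcription start, the last pair overlapping on opposite strands. Those of Thrsp start at -79 and -52, and that of Acly at 38. The promoters of Elovl6 and Acaca held none of the 6 motifs.

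Over the 15 lung mice left without mice 13, 17 and 19, the median r between the genes was 0.208. Of 36 pairs, 26 had an r above 0 and 6 an r above 0.5 (16.7% of pairs, beside 7.77% of all gene pairs). With median centring the median r was 0.196, below the 0.48 of all gene pairs. In permutation tests only Fasn and Scd1 passed (r = 0.701, rho = 0.761, 0.67 within slides, adjusted p = 0.0473). Elovl6 and Thrsp reached r = 0.733 with an adjusted p of 0.141, and Srebf1 and Pnpla3 reached -0.623. Thrsp still spread widely, with an SD of 0.81 between mice, above 99.6% of probes (1.35 over all 18 lungs), while Acly had 0.0959, above 14.6%. Whether the tissues differ in how closely the genes move together was not tested.

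In the same 15 lungs Thrsp followed the adipocyte genes. The r of Thrsp with the mean of the adipocyte list was 0.86 (rho 0.907, 0.761 without the 2 farthest mice, 0.855 within slides, permutation adjusted p = 0.00494). Elovl6 had r = 0.806 with it (adjusted p = 0.044, and 0.0937 by rho). The genes most like the mean of the 9 in these lungs, out of 14732, were Smarca1 (0.9), Adprm (0.883), Clcn2 (0.88), 1190005I06Rik (0.874), Rcor2 (0.871), Mrap (0.865), Dnaaf2 (0.859) and Erh (0.856), and the most opposed were Sp6 (-0.921), Cemip2 (-0.902), Gdap2 (-0.895) and Skp1 (-0.894). With all 18 lungs the list changed to Mrap (0.978), Cidea (0.963), Acadm (0.961), Adig (0.96), the perilipin gene Plin1 (0.957), Pck1 (0.957), Slc2a5 (0.943) and Dgat2 (0.943), with Apbb2, Bnip2, Rcn2 and Dpagt1 lowest at -0.894 to -0.886. Slc2a5, Pck1 and Plin1 were well above background on only 4, 9 and 12 of these 18 arrays.

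**Figure D4:**
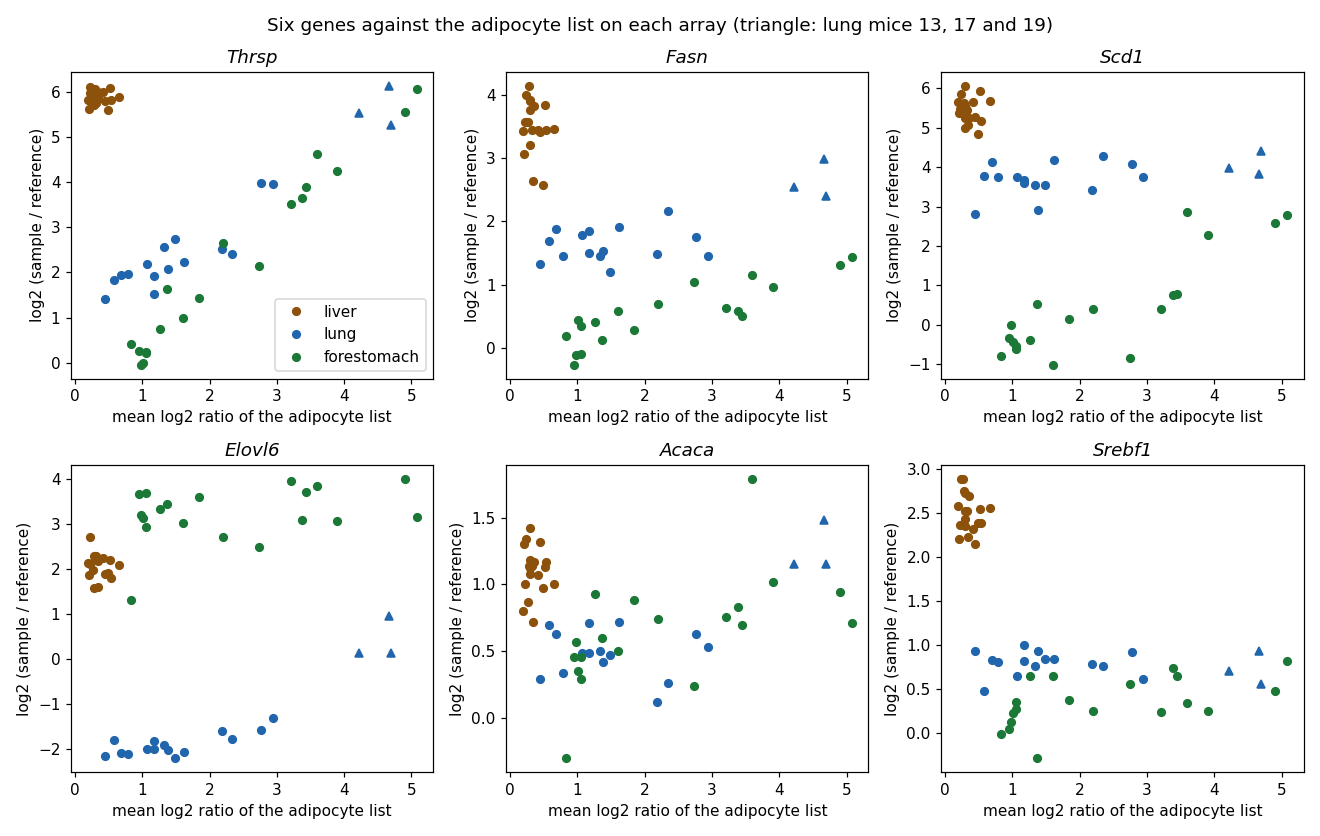
Log2 ratio of Thrsp, Fasn, Scd1, Elovl6, Acaca and Srebf1 on each array against the mean log2 ratio of the adipocyte marker genes on the same array, with tissues in different colours. In forestomach Thrsp followed the list with an r of 0.984 over 19 mice, of which 6 had Thrsp not well above background. The Thrsp ratios of liver are compressed and are not a measure of its spread there.

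The median SD of all probes between mice was larger in forestomach, at 0.28 beside 0.154 in liver and 0.155 in lung. The SD of Thrsp, Scd1 and Pnpla3 was larger there too. The SD of Thrsp between mice of a dose group was 2.18, above that of 99.7% of probes, with 13 of 19 forestomachs well above background. Scd1 followed with 1.36 (98.7%) and Pnpla3 with 1.12 (97.2%), the latter well above background on 15 of 19. In forestomach Elovl6 had 0.612, Fasn 0.488 and Srebf1 0.3, above 88.4%, 82.1% and 55.1% of probes, and Elovl6 had 0.36 (69.1%) without mouse 3. In lung the SD of Pnpla3 was 0.509 (96.6%) with all 18 mice and 0.277 (91%) without mice 13, 17 and 19, and Thrsp ranked at 99.6%. Elovl6 had 0.831 in lung with all 18 mice, more than in forestomach, and 0.244 without mice 13, 17 and 19. At D1 in forestomach, Thrsp was 3.9, 0.23, 0.22, 1.63 and 3.65 in mice 6 to 10, with mice 7 and 8 not above background. At D2 it was 2.65, 2.14, 0 and 4.24, and at D3 3.51, 1.43, 4.62, 1 and 0.75. High and low forestomachs occurred in every dose group, and all groups overlapped.

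These differences between forestomachs followed the adipocyte genes. All 9 genes had a positive r with the mean of the adipocyte list over 19 mice, with a median of 0.649. The share of all forestomach genes related to the list was not counted. Of all gene pairs in forestomach 16.6% had an r above 0.5, so the relation is not shown to be particular to the 9 genes. Thrsp had r = 0.984 (rho 0.965, 0.976 without the 2 farthest mice, 0.984 within slides, permutation adjusted p = 0.00108), Fasn 0.904 (adjusted p = 0.00216, 0.903 within slides) and Scd1 0.852 (adjusted p = 0.00252, 0.933 within slides). Acaca passed with 0.649 (adjusted p = 0.039). The list itself ranged from 0.83 to 5.08 at D0, 1.06 to 3.44 at D1, 1.01 to 3.9 at D2 and 1.26 to 3.59 at D3. In forestomach 7 of its 8 genes were tested, with Adipoq above background on 10 of 19 arrays and Lep on 0, and the summed Cy5 signal of the list was 1092 to 48131 at D0 and 3708 to 16149 at D3. The genes most like the mean of the 9 in forestomach, out of 14055, were fat-cell genes for the most part: Retn (0.965), Adig (0.963), Mrap (0.962), Adipoq (0.956), Plin1 (0.953), Cox8b (0.949), Car3 (0.948) and Cfd (0.916), with Dagla (-0.849), Abca2 (-0.837), Khnyn (-0.831) and Ccnyl1 (-0.823) at the other end. Retn, Adipoq, Plin1 and Cfd are among the adipocyte markers used above, and Cox8b is among the brown adipocyte markers. Mrap and Plin1 were well above background on only 8 of 19 forestomachs each. In liver 0 of 9 genes passed with this list, with a median r of -0.122. Only 4 of its 8 genes were tested there, and of these only Fabp4 was well above background on all 19 livers. Adipoq was above background on 0 of 19 livers, so the list could hardly show a relation in liver. The part of the adipocyte genes in the forestomach differences was not tested.

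Within forestomach, 36 pairs had a median r of 0.469, with 34 above 0 and 15 above 0.5 (41.7%, beside 16.6% of all gene pairs). With median centring the median r was 0.91, beside 0.924 for all gene pairs. The 9 pairs that passed the permutation test were led by Fasn and Thrsp (r = 0.891, adjusted p = 0.00297), Scd1 and Thrsp (0.889, adjusted p = 0.00108) and Scd1 and Acaca (0.879, adjusted p = 0.00108). The first pair had r = 0.901 within slides and the second 0.945. Srebf1 and Pnpla3 also passed (0.802, adjusted p = 0.00516), but their r within slides was 0.13. Of 17 triglyceride and lipid droplet genes, 10 had an r above 0.5 with the mean of the 9, with a median of 0.529, beside 13.1% of all genes. They were Acsl1, G0s2, Cidec, Cidea, Lipe, Agpat2, Mgll, Dgat2, Plin5 and Plin4.

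Srebf1 and Pnpla3 in forestomach moved with the slide. Pnpla3 was 0.37 to 1.85 on slide 1, 0.25 to 1.33 on slide 2 and 2.32 to 3.29 on slide 3, whose arrays were the brightest. Srebf1 was 0.04 to 0.37 on slide 1, -0.29 to 0.35 on slide 2 and 0.47 to 0.81 on slide 3. For both genes slide 3 did not overlap with slides 1 and 2. The share of all forestomach probes that separate slide 3 was not counted, so this is not shown to be particular to these genes. Pnpla3 was well above background on 15 of 19 forestomachs and Srebf1 on 12 of 19. Thrsp ranged from 0.75 to 6.05 on slide 3 and from -0.04 to 4.62 on slide 2, and Acly from 0.73 to 1.68 and from 0.52 to 2.24, so these genes overlapped between slides. Pnpla3 and Srebf1 were also related to the mean of the keratinocyte list, with r = 0.899 and 0.87, and within slides r was 0.129 and 0.403. Pnpla3 had r = 0.901 with the fasting-induced list (permutation adjusted p = 0.00216), and 0.641 within slides. With the glandular stomach list 0 of 9 genes passed after adjustment, Fasn having r = 0.578 and rho = 0.619 over 19 mice (permutation adjusted p = 0.227 and 0.178) and r = 0.356 within slides. The part of slide brightness and of neighbouring organs in these values was not tested.

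**Figure D5:**
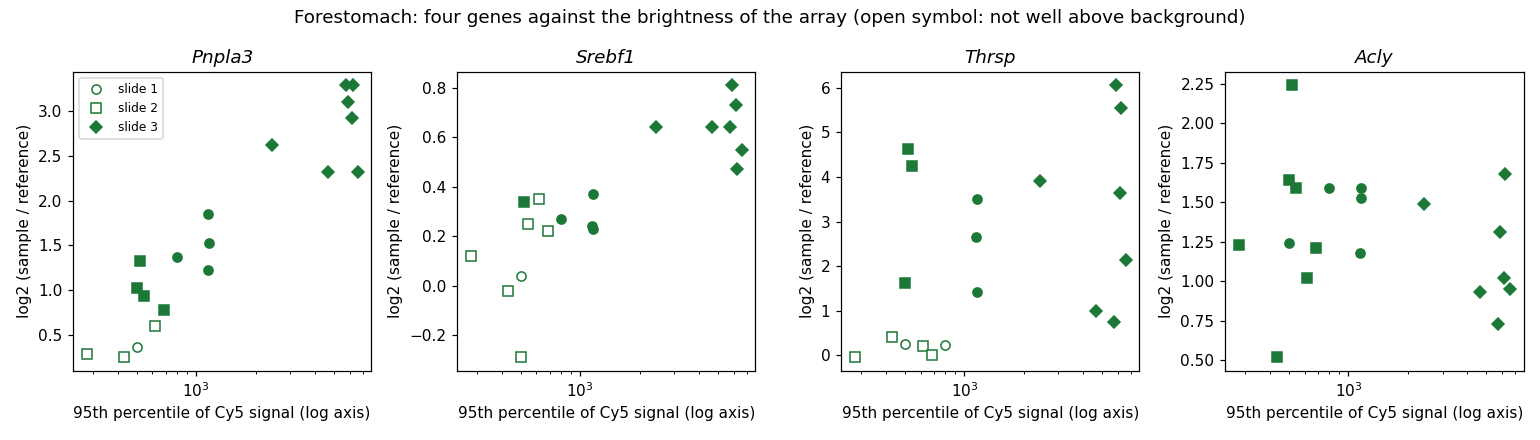
Log2 ratio of Pnpla3, Srebf1, Thrsp and Acly in forestomach against the 95th percentile of the Cy5 signal of the array (log axis), with slides as different markers and open symbols not well above background. Pnpla3 and Srebf1 on slide 3, at 2412 or more, lay above all values of slides 1 and 2, and Thrsp and Acly did not.

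A mouse that was high for a gene in 1 tissue was not found to be high for it in another. The 27 relations of a gene between 2 tissues, over 19 mice for liver and forestomach and over 15 where lung was involved (mice 13, 17 and 19 left out), had r from -0.43 to 0.414. Between liver and lung, r of Pnpla3 was 0.271, and 0.641 within slides. That of Acaca was -0.3, and -0.735 without the 2 farthest mice. These were the furthest moves of the 27 relations in either direction. The lowest permutation p for Pearson's r was 0.116, for Scd1 between liver and lung (r = 0.392), and the adjusted p were 0.926 to 0.989. For Spearman's rho the lowest permutation p was 0.0739, for Thrsp between liver and forestomach (rho = 0.488), and it did not pass after adjustment. The liver ratios of Thrsp are compressed.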

How the data were processed

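RNA of 56 tissue samples was measured on 2-colour Agilent arrays. The scanner files deposited by the authors hold signal intensity per spot, and a second deposited table holds the authors' LOWESS-normalized log2 ratios, used here as an alternative. Of 62976 spots, 3671 controls were left out, and 26413 probes carried a gene symbol. Median intensities without background subtraction were loess-normalized within each array to log2(Cy5/Cy3), tested with limma 3.58.1 in R 4.3.3 (two-sided) and adjusted over all probes (Benjamini-Hochberg). A probe was tested where Cy5 was well above background on at least 3 arrays of the tissue, and called at an adjusted p of 0.05 and a fold of 1.5. The dose groups of a tissue shared 1 estimate of the spread, and tissue contrasts came from 1 fit of all arrays. The depth of arrays has no count; the number of mice limits the precision. Correlations used deviations from dose-group means and 100000 permutations within dose groups.

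Mouse numbers pair the tissues of an animal; arrays of a mouse in different tissues had a consensus correlation of 0.0242, and the replicate block changed no count of called members. The methods were checked on simulated data. The members and lists were chosen with earlier results of these data known. Named genes were all members, the 8 most like and 4 most opposed genes per tissue, and up to 4 genes per list past both limits, of which 1 is not reported here.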

Additional observations from a re-analysis of the deposited data

Results flagged for a closer look

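Among 99 groups of 4 or 5 mice that were tested for a single distant value (Dixon's criterion, which chance meets in about 1 of 20 groups), 3 held one. In forestomach, Me1 was 0.99 in mouse 4 of D0 and 2.49 to 2.94 in the other 4. In forestomach, Srebf1 was 0.55 in mouse 12 of D2, an array on slide 3, and 0.22 to 0.25 in the other 3. In liver, Pnpla3 was 1.77 in mouse 18 of D3 and 0.22 to 0.64 in the other 4, and mouse 18 also had the highest Fasn, Acly and Elovl6 of that group. No gene's D3 mice all lay above D0 in 1 tissue and all below it in another.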

How the results depend on the processing

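The dose counts stayed at 0 of 9 under every alternative run. Those were median centring, normexp, the authors' ratios, no filter, and slide or array column as a term. The dose in mg per kg, the Fs statistic and each mouse left out in turn also gave 0. So did lung without mice 17 and 19 or 13, 17 and 19, both sets chosen after seeing the data. Array column followed dose on 50 of 56 arrays, so the 2 largely cannot be told apart. Several uncalled D3 differences changed sign; the cause was not tested. With array column they were, in liver, 0.11 for Fasn, -0.16 for Acaca and 0.04 for Acly, in lung -0.34 for Fasn, -0.16 for Scd1 and -0.3 for Acaca, and in forestomach -0.72 for Fasn, -0.07 for Acly, -0.16 for Me1, -0.22 for Srebf1 and -0.5 for Pnpla3. In liver normexp gave 0.06 for Fasn and 0.02 for Me1, and the authors' ratios 0.01 for Me1. In lung median centring gave 0.01 for Srebf1, and leaving out either set of mice gave -0.2 for Fasn, -0.09 for Scd1 and -0.04 for Me1. Leaving out each mouse, the D3 difference in liver ranged from -0.2 to 0.18 for Fasn, -0.02 to 0.1 for Acaca, -0.24 to 0.14 for Acly, 0 to 0.19 for Elovl6, -0.13 to 0.1 for Me1, -0.01 to 0.12 for Thrsp and -0.06 to 0.34 for Pnpla3. It ranged in lung from -0.13 to 0.24 for Scd1, and in forestomach from -0.09 to 0.33 for Fasn, -1.05 to 0.04 for Scd1, 0 to 0.38 for Acly, -0.09 to 0.4 for Me1 and -0.81 to 0.71 for Thrsp.

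Between tissues at D0, median centring called 2 genes for liver against lung, where Acaca was -0.23. It turned Elovl6 to 0.18 and Me1 to 1.09 for liver against forestomach, and Acaca to 2.08, Acly to 1.76 and Me1 to 0.68 for lung against forestomach. Leaving out each mouse, 8 genes were called for liver against lung, 6 to 8 for liver against forestomach and 5 for lung against forestomach. For liver against forestomach, Pnpla3 was lost without mouse 2, 5, 16, 17 or 19, Elovl6 without 1, 2, 4 or 5, and Acaca without 1 or 3. For lung against forestomach, Pnpla3 was lost and Srebf1 gained without mouse 2 or 5, Acaca ranged from -0.25 to 0.11 and Thrsp from -1.09 to 1.08. With mouse as a replicate block the counts were 8, 8 and 5, and 0 for the differences in D3 effect. The median r between members was 0.91 in forestomach and 0.74 in liver under median centring, beside 0.924 and 0.806 for all genes under that scaling. Leaving out each mouse it ranged from 0.391 to 0.556 in liver, 0.0947 to 0.27 in lung and 0.367 to 0.506 in forestomach. Dim probes limit Pnpla3 in liver and lung, and Fasn, Srebf1 and Thrsp in forestomach.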
